A study of Mus musculus with 10 samples.

Results

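The genes described here encode the channels that start the cardiac impulse and pass it from cell to cell: the sodium channel beta subunit Scn4b, the pacemaker channel Hcn2, the T-type calcium channels Cacna1g and Cacna1h, and the gap junction proteins Gja1 and Gja5. They were taken by symbol, as every probe set whose platform annotation gave 1 of 7 symbols and no other gene. This gave 12 of the 45037 probe sets that are not array controls: 6 for Gja1, 2 for Cacna1h and 1 each for Scn4b, Hcn2, Cacna1g and Gja5, hence 6 of the 18193 genes with a probe set of their own. The seventh symbol, Hcn4, had no probe set under that rule and was not analysed here.

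Sodium channels carry the fast upstroke of the action potential, and a beta subunit such as Scn4b changes how the pore-forming alpha subunit opens and closes. HCN channels pass the inward pacemaker current that drives slow depolarisation, and T-type calcium channels open at low voltage and add to it, which makes both families known for their role in the sinus node. Connexins assemble into gap junctions: Cx43, the product of Gja1, couples working ventricular muscle at the intercalated disc, and Cx40, the product of Gja5, is known from atria, the ventricular conduction system and arterial endothelium.

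Gene expression was measured on Affymetrix arrays from hearts of male SV129 mice aged 32 weeks. Wild-type (WT) animals and PKCz -/- littermates (KO), which lack an atypical protein kinase C, were infused for 14 days from subcutaneous osmotic minipumps. The pumps held PBS alone or the hormone angiotensin II (AngII), which is infused to induce cardiac hypertrophy, at a daily dose of 432 µg per kg. PBS was given to WT (n = 2 arrays) and KO (n = 3), and AngII to WT (n = 3) and KO (n = 2), which makes 4 groups and 10 arrays. The source label calls the controls non-treated, whereas titles and design name PBS. No label says that each array comes from a separate animal, so p-values reflect only how far these samples differ, which can be technical in origin. A number after the group, as in KO PBS 3, is that of the array's title.

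Values are log2 expression, a scale on which 1 unit is a doubling of the array signal, and differences are log2 differences ± SE from a limma fit over all 10 arrays. A probe set was called at an adjusted p under 0.05 after Benjamini-Hochberg adjustment over all 45037. The mean signal of 3 probe sets, both of Cacna1h and that of Gja5, lay below 6.19, the median over probe sets. Bulk heart RNA was measured, so fewer cells of a type and less RNA per cell cannot be told apart. The 10 working cardiomyocyte markers read 12.62 to 14.68 over all arrays, for example 14.25 to 14.36 for Tnnt2, the gene of cardiac troponin T.

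The arrays differed in ways that the groups do not account for. On 3 arrays, KO PBS 4 and both KO AngII arrays, the 24 polyadenylated spike-in control probe sets averaged 6.90 to 7.08 (log2), against 12.86 to 13.33 on the other 7. Both KO AngII arrays are among the low ones, so differences of the channel genes that involve them are mostly also given with spike-in group as a block where that moves them. For other genes, blocked values are given in some cases only. Those blocked values rest on KO PBS 4 as the only low array of another group. Array WT AngII 2 had the highest fibroblast marker level, 2.02 above the mean over arrays, with the others between -0.69 and 0.49. Prkcz, the targeted gene, read 5.70 to 5.87 in KO and 6.23 to 6.45 in WT with 1 probe set (n = 5 arrays each, difference -0.53 ± 0.09, limma adjusted p = 0.126), and the other 2 probe sets differed by 0.10 and -0.09.

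Gja1 is the gene with the most probe sets and the clearest pattern over the groups, so its proximal promoter is shown, beside that of Gja5 as the other connexin. RefSeq (GRCm38.p6) supplied the 250 bases before the annotated start for 5 of the 7 symbols. Both promoters lie on the plus strand, Gja1 at chr10:56377050-56377299 and Gja5 at chr3:97032152-97032401. Capitals mark motif matches on either strand, and no match overlapped another.
Gja1: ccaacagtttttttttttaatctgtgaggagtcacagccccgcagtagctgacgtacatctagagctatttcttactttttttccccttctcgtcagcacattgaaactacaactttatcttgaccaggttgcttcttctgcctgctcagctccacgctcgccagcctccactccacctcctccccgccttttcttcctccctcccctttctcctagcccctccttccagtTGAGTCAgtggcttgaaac
Gja5: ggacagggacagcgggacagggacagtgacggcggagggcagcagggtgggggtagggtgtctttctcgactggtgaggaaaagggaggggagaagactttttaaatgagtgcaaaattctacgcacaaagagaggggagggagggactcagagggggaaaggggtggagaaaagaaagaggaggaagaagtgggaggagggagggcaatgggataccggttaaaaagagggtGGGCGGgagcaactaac
The Gja1 window held 1 AP-1 letter match (TGANTCA), whose first base lies 19 bases before the start; 6.75% of 32851 promoter windows of that length hold 1 or more. The Gja5 window held 1 GC box (GGGCGG), found in 32.7% of the windows. Neither window held the NKX2-5 letters (TNAAGTG), which 10.1% of windows hold. The windows of Hcn2 and Hcn4 held 3 and 2 GC boxes, and that of Scn4b held no match to any of the 3 motifs. A match of letters is not evidence of binding.

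None of the 12 probe sets passed the adjusted test in any of 7 comparisons. These were AngII against PBS in each genotype, KO against WT under each treatment, the average effect of AngII, the average effect of genotype, and the genotype difference in the AngII effect. Over all probe sets, the adjusted test called 0% for the AngII effect in WT, in KO, averaged and for its genotype difference. It called 0.0133% for KO against WT under PBS, 0.0111% under AngII and 0.0444% averaged over treatments. At an unadjusted limma p under 0.05, 5 of the 12 were lower in KO under PBS and 3 were lower in KO on average, and all of these were Gja1 probe sets. In the other 5 comparisons 0 of the 12 reached that level. Among all probe sets, 3.58% were lower at that level under PBS, of 6.29% in either direction, and 6.54% were lower on average, of 12.4%. The Gja1 probe sets are annotated to the same gene and count as 1 gene, not as 5 independent results. For the remaining comparisons the share of all probe sets at that level in either direction was 5.23% for AngII in WT, 4.57% for AngII in KO, 1.64% for the genotype difference, 6.51% for KO against WT under AngII and 9.62% for AngII on average.

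Gja1 read lower in KO than in WT hearts under PBS with 5 of its 6 probe sets, by 1.20-fold to 1.39-fold, and lay within 1.05-fold between genotypes under AngII. None of these differences passed the adjusted test. The brightest, 1437992_x_at, read 13.17 and 13.25 in WT PBS. It read 13.01, 13.09 and 13.00 in WT AngII, then 12.80, 12.89 and 13.04 in KO PBS, and 12.88 and 13.05 in KO AngII. Both WT PBS arrays were the highest of the 10, and neither WT AngII nor KO PBS overlapped with WT PBS. The order of the group means was WT PBS (13.21 ± 0.05 SD), WT AngII (13.03 ± 0.05), KO AngII (12.96 ± 0.12) and KO PBS (12.91 ± 0.12), and no step between neighbours in that order passed the test.

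The difference between KO and WT under PBS was -0.30 ± 0.10 for this probe set (95% interval -0.51 to -0.09, a 1.23-fold lower signal, limma adjusted p = 0.671). The largest difference of the 5 was that of 1438945_x_at. It read 12.34 and 12.45 in WT PBS, 11.96, 12.17 and 12.26 in WT AngII, 11.79, 11.83 and 12.16 in KO PBS, and 11.92 and 12.20 in KO AngII. KO PBS lay wholly below WT PBS, at -0.47 ± 0.14 (95% interval -0.78 to -0.16, 1.39-fold lower, limma adjusted p = 0.633). The other 3 gave -0.40 ± 0.15 for 1415800_at, -0.26 ± 0.11 for 1438650_x_at and -0.42 ± 0.15 for 1438973_x_at, with limma adjusted p of 0.735, 0.783 and 0.73. None of these passed, and their intervals excluded 0 only before adjustment.

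Within KO PBS the arrays were not alike. For 4 of the 5 probe sets, KO PBS 2 and KO PBS 3 read below every one of the other 8 arrays; 1415800_at, for instance, read 11.73 and 11.81 there and 12.12 to 12.40 elsewhere. For 1437992_x_at the ranges touched, at 12.80 to 12.89 against 12.88 to 13.25. KO PBS 4, the low spike-in array of the group, read 12.27 with 1415800_at, equal to WT PBS 5 at 2 decimals. Restricting KO PBS to its 2 high spike-in arrays, which is what the spike-in block does here, moved the 5 differences to -0.36, -0.57, -0.59, -0.35 and -0.51 (limma adjusted p from 0.683 to 0.91). At an unadjusted p under 0.05, 5 of the 12 probe sets were lower in KO in that fit too, where 4.88% of all probe sets reached it in either direction. Leaving out WT PBS 5, KO PBS 2 or WT PBS 3 brought the unblocked count from 5 to 1, 2 and 2, and leaving out KO PBS 3 brought it to 3. Of all probe sets 3.41%, 5.24%, 5.92% and 9.25% reached that level in those fits, against 6.29% with all arrays. The group ranges did not overlap for 5 of the 12 probe sets, against 24% of all probe sets.

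**Figure D1:**
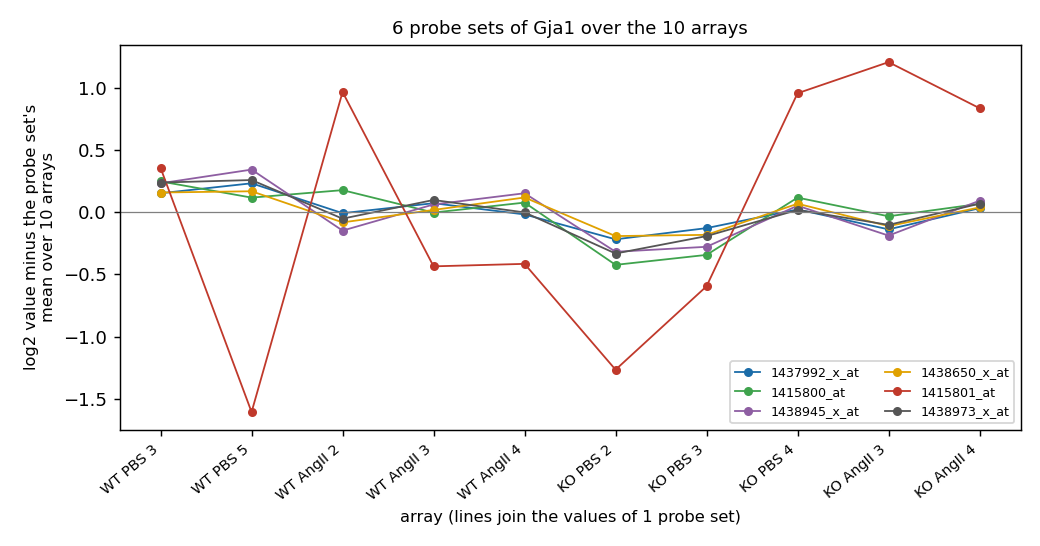
Signal of the 6 Gja1 probe sets on each of the 10 arrays (x axis), as the log2 value minus that probe set's mean over the arrays (y axis); lines only join the values of 1 probe set. Of the 6, 5 stay within a narrow band, with KO PBS 2 and KO PBS 3 the 2 lowest arrays for 4 of them, while 1415801_at runs from 7.38 to 10.19 (log2) on a pattern of its own.

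Under AngII the same 5 probe sets differed between genotypes by -0.07 to -0.03 (limma adjusted p from 0.846 to 0.959), and KO and WT overlapped for each. The spike-in block turned these into -0.57 to -0.26, the lowest being 1415800_at at -0.57 ± 0.17 (limma adjusted p = 1), so the size of the genotype difference under AngII depended on how KO PBS 4 was used. AngII against PBS gave -0.27 to -0.10 in WT (limma adjusted p from 0.93 to 0.967). In WT, 4 of the 12 members had non-overlapping ranges, all of them Gja1 probe sets, against 19.7% of all probe sets. In KO, AngII against PBS gave 0.05 to 0.23 for the 5 (limma adjusted p from 0.892 to 0.94), and -0.11 to -0.03 with the block. The genotype difference in the AngII effect was 0.21 to 0.40 for the 5, with a limma adjusted p of 1 for each, and 0.00 to 0.21 with the block, so the effects in WT and KO were not shown to differ.

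Averaged over treatments, KO minus WT was -0.18 ± 0.07 for 1437992_x_at and -0.27 ± 0.10 for 1438945_x_at (limma adjusted p = 0.35 and 0.353). The range over the 5 probe sets was -0.27 to -0.16, and -0.57 to -0.31 with the spike-in block. In that blocked fit 5 of the 12 members reached an unadjusted p under 0.05, against 3.13% of all probe sets. Leaving out WT PBS 5 or KO AngII 3 brought the unblocked count from 3 to 0, and leaving out KO PBS 4 brought it to 5. Of all probe sets 6.6%, 7.29% and 8.89% reached that level in those fits, against 12.4% with all arrays. No members had ranges that separated all KO from all WT arrays, which 1.43% of all probe sets did. Weighting the arrays by their fit called 1438945_x_at (-0.33, limma adjusted p = 0.0449), and in that fit 1562 of the 45037 probe sets were called.

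The sixth Gja1 probe set, 1415801_at, did not follow the others. It read 9.34 and 7.38 in WT PBS, 9.95, 8.55 and 8.57 in WT AngII, 7.72, 8.39 and 9.94 in KO PBS, and 10.19 and 9.82 in KO AngII. Its range over the arrays, 2.82, was larger than that of 99.7% of all probe sets, whose median range was 0.55. Arrays of 1 group stood far apart, with an SD of 1.38 in WT PBS and 1.14 in KO PBS, and KO AngII overlapped with KO PBS.

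A measure of how far labelling reached towards the 5′ end of transcripts moved with it. This is the beta-actin 3′ minus 5′ signal, larger where the 5′ end is labelled less. On the 4 arrays where it was 0.74 to 0.92, 1415801_at read 9.82 to 10.19, and on the 4 where it was 1.28 to 1.70 it read 7.38 to 8.55. The other 5 Gja1 probe sets overlapped between these arrays, with 12.88 to 13.05 against 12.80 to 13.25 for 1437992_x_at. On the arrays in between, 1415801_at read 8.57 on WT AngII 4 (measure 1.01) and 9.34 on WT PBS 3 (1.17). The low spike-in arrays had 0.74 to 0.83 in this measure and the high ones 0.92 to 1.70. The part of this measure in the signal of 1415801_at was not tested beyond a fit that holds it as a covariate.

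**Figure D2:**
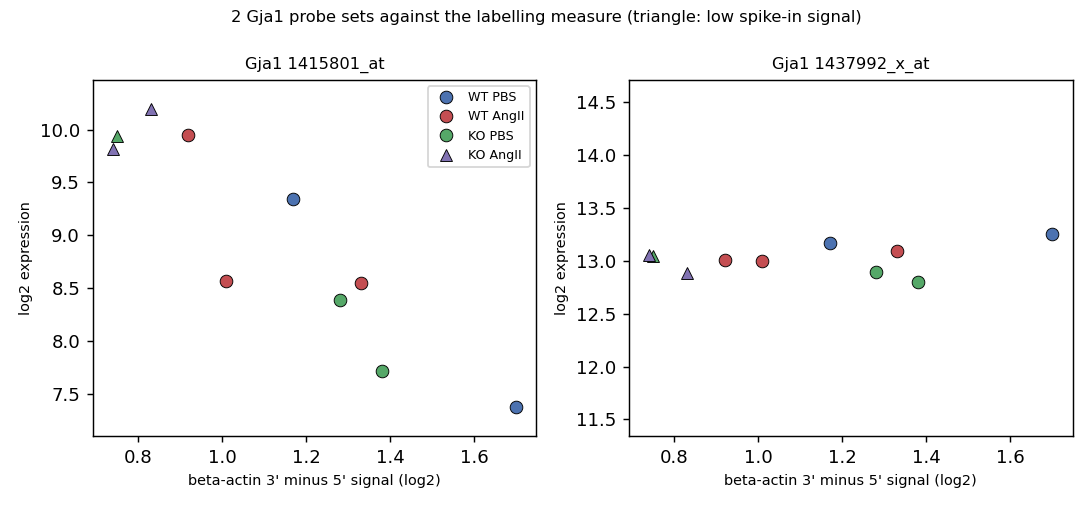
Log2 signal of Gja1 1415801_at (left) and 1437992_x_at (right) on each array against the beta-actin 3′ minus 5′ signal (log2, x axis); colours are groups, triangles are low spike-in arrays, and both y axes span an equal number of log2 units. In the left panel the 4 leftmost arrays lie at 9.82 to 10.19 and the rightmost at 7.38, and in the right panel all arrays lie between 12.80 and 13.25.

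For 1415801_at AngII against PBS was 0.66 ± 0.66 in WT and 1.32 ± 0.66 in KO (limma adjusted p = 0.943 and 0.892), and 0.99 ± 0.47 on average (adjusted p = 0.523). With the beta-actin measure as a covariate these were -0.45, 0.20 and -0.13, and with the spike-in block the differences in KO and on average were 0.07 and 0.37. KO against WT was 0.33 ± 0.66 under PBS and 0.99 ± 0.66 under AngII (limma adjusted p = 0.95 and 0.735). The spike-in block turned those to -0.30 and -0.90, and the covariate to -0.63 and 0.02. Of these 5 differences of 1415801_at, only that for AngII in KO kept its sign in both fits. Between pairs of the other 5 probe sets Pearson's r over the 10 arrays was 0.76 to 0.98, and with 1415801_at it was -0.12 to 0.45; these describe arrays that share labelling and normalization, and carry no test.

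Gja5 was dim, and its values lay close together. It read 4.76 and 4.92 in WT PBS, 4.90, 5.05 and 4.96 in WT AngII, 4.84, 4.99 and 5.22 in KO PBS, and 5.17 and 5.01 in KO AngII. The group means ran from WT PBS (4.84 ± 0.12 SD) through WT AngII (4.97 ± 0.08) and KO PBS (5.02 ± 0.19) to KO AngII (5.09 ± 0.11), and each neighbouring pair overlapped. KO against WT was 0.18 ± 0.13 under PBS and 0.12 ± 0.13 under AngII (limma adjusted p = 0.853 and 0.805), the latter being -0.18 with the spike-in block. The average genotype difference was 0.15 ± 0.09 (95% interval -0.05 to 0.34, limma adjusted p = 0.491), which became -0.05 with the spike-in block. AngII against PBS was 0.13 ± 0.13 in WT and 0.07 ± 0.13 in KO (limma adjusted p = 0.939 and 0.938), and -0.13 in KO with the block. The arterial endothelial markers, a known site of Gja5, ranged from -0.21 to 0.19 over arrays around their mean. They were highest on WT AngII 2 (0.19) and lowest on KO PBS 4 (-0.21), where Gja5 read highest. For the atria, another known site, the marker level was likewise highest on WT AngII 2 (0.40) and lowest on KO PBS 4 (-0.19). Of the atrial markers Sln read 4.87 to 6.11 and Myl7 5.74 to 6.36, while Nppa, the brightest, read 13.07 to 14.48. The part of either site in the Gja5 signal was not tested.

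**Figure D3:**
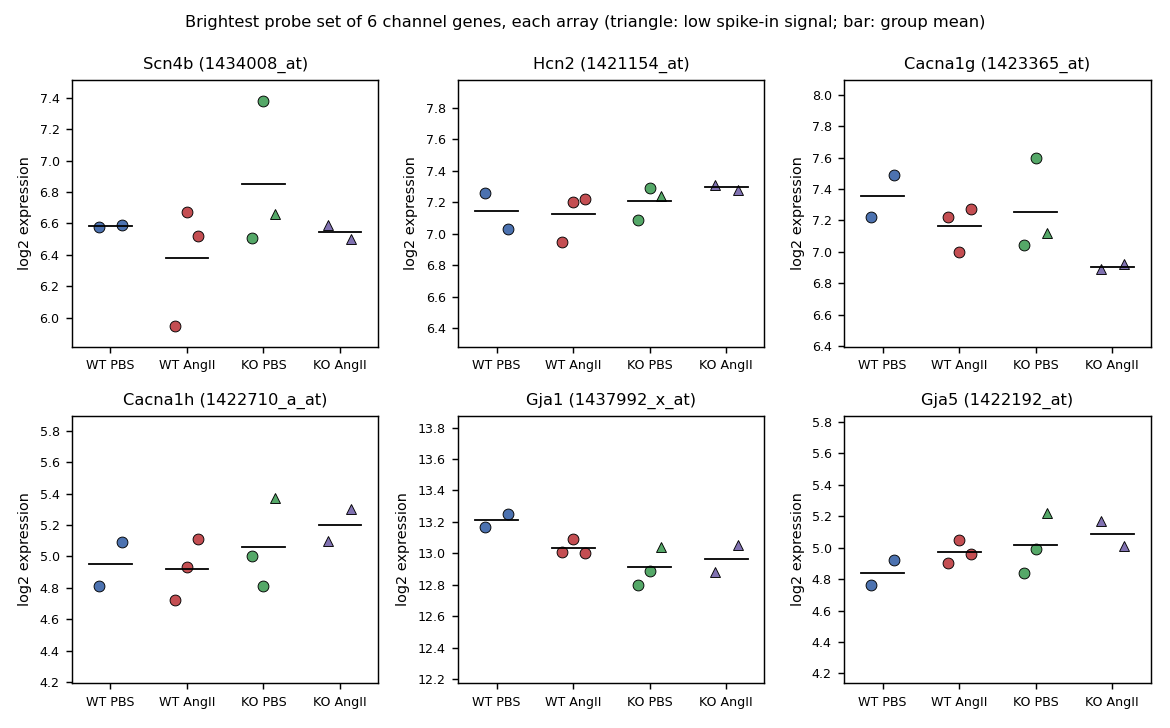
Log2 expression of the brightest probe set of each of the 6 genes on each array (y axis), by group (x axis); bars are group means, triangles are the 3 low spike-in arrays, and the y axes span an equal number of log2 units. Scn4b has 1 array high in KO PBS (7.38) and 1 low in WT AngII (5.95), KO AngII lies below the other groups for Cacna1g, and WT PBS lies above the other groups for Gja1.

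Among other connexins and pannexin of the heart 5 of 6 listed genes were measured, and 0 passed in any comparison. Averaged over treatments 4 of the 5 were below 0 in KO (median -0.17, against 0.03 over all probe sets). Gja3 and Gjc1, which encodes Cx45 of the conduction system, reached an unadjusted p under 0.05, at -0.41 ± 0.15 and -0.41 ± 0.18 (limma adjusted p = 0.35 and 0.39; with the spike-in block -0.37 and -0.35). Of all probe sets 12.4% reached an unadjusted limma p under 0.05 in either direction. Gjc1 read 8.64 and 8.60 in WT PBS, 9.03, 8.11 and 8.31 in WT AngII, 8.05, 8.54 and 8.21 in KO PBS, and 7.89 and 8.16 in KO AngII. WT AngII 2 was its highest array, and KO and WT overlapped.

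The intercalated disc, where gap junctions sit beside adherens junctions and desmosomes, was represented by 11 of 11 listed partners. In KO against WT under PBS 9 of the 11 were below 0 (median -0.13, all probe sets 0.01), and 0 passed. Of the 9, 2 reached an unadjusted limma p under 0.05, as did 6.29% of all probe sets in either direction. The 2 were Pkp2, the desmosomal plakophilin (-0.32 ± 0.12, limma adjusted p = 0.745), and Cdh2, N-cadherin (-0.23 ± 0.10, limma adjusted p = 0.789). On average over treatments 8 of 11 were below 0 (median -0.09), with Ctnna1, alpha-catenin, at -0.26 ± 0.07 and Pkp2 at -0.28 ± 0.09 (limma adjusted p = 0.275 and 0.308). For AngII against PBS in WT 8 of 11 were below 0, with a median of -0.01. Desmoglein Dsg2 had the smallest p there, at 11.16 and 10.94 in WT PBS against 10.38, 10.50 and 10.24 in WT AngII. Its difference was -0.68 ± 0.18 (limma adjusted p = 0.924).

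Scn4b read nearly the same on 8 of the 10 arrays, and its group differences rested on the other 2. It read 6.58 and 6.59 in WT PBS, 5.95, 6.67 and 6.52 in WT AngII, 6.51, 7.38 and 6.66 in KO PBS, and 6.59 and 6.50 in KO AngII. Without WT AngII 2 (5.95) and KO PBS 3 (7.38) the values lay between 6.50 and 6.67. The range over all arrays, 1.43, was larger than that of 96.5% of probe sets. In the order of group means KO PBS (6.85 ± 0.46 SD) came first, then WT PBS (6.58 ± 0.01), KO AngII (6.54 ± 0.06) and WT AngII (6.38 ± 0.38), and the ranges of neighbours overlapped.

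AngII against PBS was -0.20 ± 0.26 for Scn4b in WT (95% interval -0.76 to 0.36) and -0.31 ± 0.26 in KO (-0.87 to 0.25), with limma adjusted p of 0.955 and 0.898. Without WT AngII 2 the difference in WT was 0.01, and without KO PBS 3 that in KO was -0.04. KO against WT was 0.27 ± 0.26 under PBS and 0.16 ± 0.26 under AngII (limma adjusted p = 0.889 and 0.866). These became 0.00 without KO PBS 3 and -0.06 without WT AngII 2. With the spike-in block AngII in KO was at -0.12 and KO against WT under AngII at 0.45. WT AngII 2 was also the array with the highest fibroblast (2.02), macrophage (1.02), smooth muscle and pericyte (0.86) and atrial (0.40) marker levels. Its working cardiomyocyte level was the lowest (-0.10, others -0.02 to 0.05). The atrial markers were not alike there. Dkk3 (8.24, elsewhere 6.01 to 6.82), Nppa, Myl4, Myl7 and Nr2f2 were at their highest, and Tbx5 was at its lowest (7.93). Sln (4.99) and Bmp10 (5.20) lay inside the range of the other arrays. The part of cell composition in the Scn4b value of WT AngII 2 was not tested. KO PBS 3 had the lowest smooth muscle and pericyte level (-0.44, next lowest -0.24) and the highest endothelial (0.25) and conduction tissue (0.15) levels, with a working cardiomyocyte level of 0.01 and a fibroblast level of -0.43 inside the range of the other arrays. The part of these in its Scn4b value was not tested.

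Of the other sodium channel subunits 9 of 12 listed genes were measured, and 0 passed in any comparison. Averaged over treatments 6 were above 0 and 3 below in KO (median 0.09, all probe sets 0.03). Scn3a, an alpha subunit known from neurons, had the smallest p there, at -0.33 ± 0.11 (limma adjusted p = 0.333), and the difference was -0.09 with the spike-in block. For AngII in WT 7 of the 9 were below 0 (median -0.04) and in KO 3 of the 9 (median 0.08), with 0 at an unadjusted p under 0.05 in either.

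Hcn2 varied little. It read 7.26 and 7.03 in WT PBS, 6.95, 7.20 and 7.22 in WT AngII, 7.09, 7.29 and 7.24 in KO PBS, and 7.31 and 7.28 in KO AngII. Its range of 0.37 was wider than that of only 17.6% of probe sets. The means ran from WT AngII (7.12 ± 0.15 SD) through WT PBS (7.14 ± 0.16) and KO PBS (7.21 ± 0.10) to KO AngII (7.29 ± 0.02), with overlap between each neighbouring pair. AngII against PBS was -0.02 ± 0.15 in WT (95% interval -0.35 to 0.31) and 0.09 ± 0.15 in KO (-0.24 to 0.42), with limma adjusted p of 0.995 and 0.937, and 0.05 in KO with the spike-in block. KO against WT was 0.06 ± 0.15 under PBS (limma adjusted p = 0.96). Under AngII the KO arrays lay above the WT arrays without overlap, at 0.17 ± 0.15 (limma adjusted p = 0.77), and at 0.12 with the spike-in block. Non-overlap occurred for 2 of the 12 members in that comparison, against 27.1% of all probe sets.

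Of 5 other HCN genes and regulators 4 were measured and 0 passed in any comparison. Cav3, the muscle caveolin that binds several channels, was at -0.37 ± 0.18 for AngII in WT (limma adjusted p = 0.93). Pex5l, a protein that controls HCN trafficking, and Hcn3 were at 0.16 ± 0.13 and 0.13 ± 0.10 in KO on average (limma adjusted p = 0.567 and 0.579), Hcn3 being at 0.01 with the spike-in block. Conduction tissue markers (6 of 9 measured) ranged from -0.19 to 0.15 around their mean over the arrays. They were lowest on WT AngII 2 and highest on KO PBS 3. Of these markers Shox2 read 5.29 to 5.76, Isl1 5.10 to 5.82 and Scn10a 4.80 to 5.40, below the median over probe sets. Above it, Tbx3 read 6.51 to 7.78, Cntn2 6.50 to 6.98 and Irx3 8.30 to 9.40.

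Cacna1g, which encodes the Cav3.1 T-type channel, was lowest in KO AngII. It read 7.22 and 7.49 in WT PBS, 7.22, 7.0 and 7.27 in WT AngII, 7.04, 7.60 and 7.12 in KO PBS, and 6.89 and 6.92 in KO AngII. Both KO AngII arrays lay below all 8 others. In KO AngII against PBS the difference was -0.35 ± 0.19 (95% interval -0.76 to 0.06, 1.27-fold lower, limma adjusted p = 0.892), the only member of 12 without overlap there, against 24.5% of all probe sets. Without KO PBS 3, the highest array (7.60), that difference was -0.18. KO against WT under AngII was -0.26 ± 0.19 (limma adjusted p = 0.742). Because both KO AngII arrays are low spike-in arrays, these values move with the block, to -0.22 and -0.06. The third low array, KO PBS 4, read 7.12, inside the range of 7.0 to 7.60 on the 7 high arrays.

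In WT the AngII difference of Cacna1g was -0.19 ± 0.19 (limma adjusted p = 0.943), and on average over genotypes it was -0.27 ± 0.13 (95% interval -0.56 to 0.02, limma adjusted p = 0.535). That average was -0.20 with the spike-in block and -0.18 without KO PBS 3. KO against WT was -0.10 ± 0.19 under PBS and -0.18 ± 0.13 on average (limma adjusted p = 0.947 and 0.551), and -0.03 and -0.05 with the block. No member's ranges separated all AngII from all PBS arrays, which 1.07% of all probe sets did. Group means ran from WT PBS (7.35 ± 0.19 SD) through KO PBS (7.25 ± 0.30) and WT AngII (7.16 ± 0.15) to KO AngII (6.90 ± 0.02), and the first 3 groups overlapped.

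Cacna1h, which encodes Cav3.2, was dim with both probe sets. The brighter, 1422710_a_at, read 4.81 and 5.09 in WT PBS, 4.72, 4.93 and 5.11 in WT AngII, 5.0, 4.81 and 5.37 in KO PBS, and 5.10 and 5.30 in KO AngII. The 3 low spike-in arrays gave 5.10 to 5.37 and the 7 high ones 4.72 to 5.11. Group means ran from WT AngII (4.92 ± 0.19 SD) through WT PBS (4.95 ± 0.20) and KO PBS (5.06 ± 0.29) to KO AngII (5.20 ± 0.14), with overlap between neighbours. KO against WT under AngII was 0.28 ± 0.17 (limma adjusted p = 0.734), and -0.19 with the spike-in block. AngII against PBS was -0.03 ± 0.17 in WT and 0.14 ± 0.17 in KO (limma adjusted p = 0.994 and 0.915), the latter being -0.17 with the block. The second probe set, 1427607_at, lay between 4.29 and 4.45 on all arrays, a range of 0.16 that only 0.4% of probe sets undercut. Its differences over the 7 comparisons ran from -0.08 to 0.08.

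Other voltage-gated calcium channel subunits were measured for 5 of 6 listed genes, with 0 passing in any comparison. Cacna2d1, an auxiliary subunit, was at -0.25 ± 0.12 in KO on average (limma adjusted p = 0.403), and at -0.05 with the spike-in block. In that comparison 4 of the 5 measured genes were above 0 (median 0.08, all probe sets 0.03). For AngII in WT 4 of the 5 were below 0 (median -0.10, all probe sets 0.01).

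**Figure D4:**
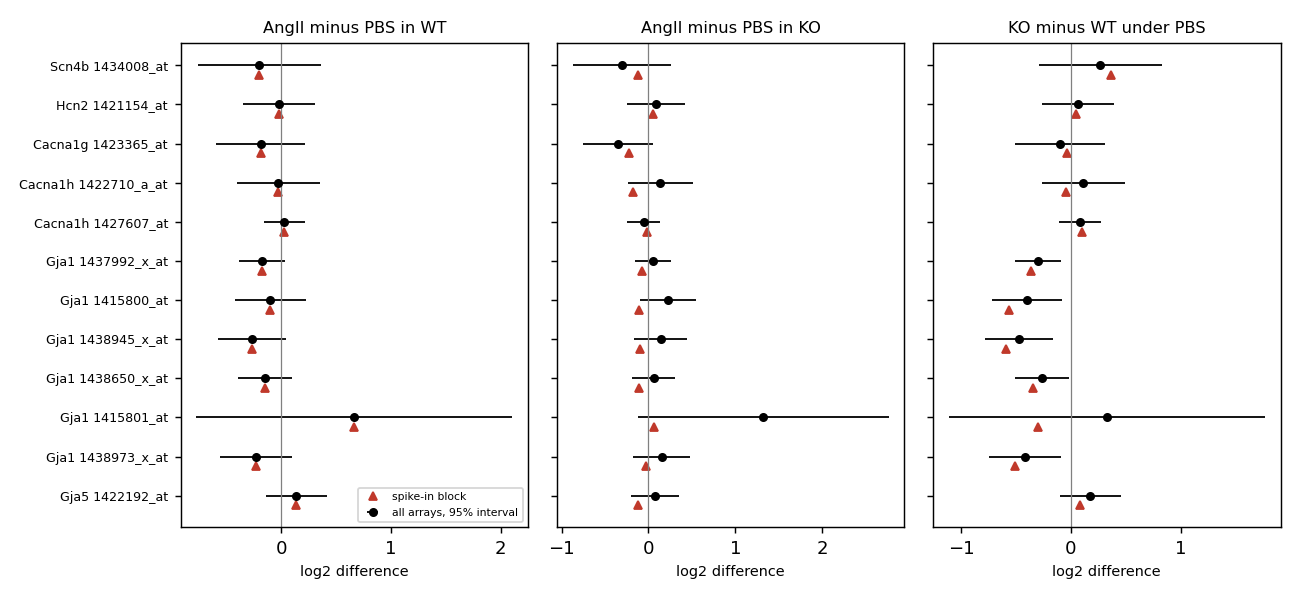
Log2 differences of the 12 probe sets (rows) for AngII minus PBS in WT, AngII minus PBS in KO and KO minus WT under PBS; black points and lines are the fit over all arrays with 95% intervals that are not adjusted for the number of probe sets, red triangles the fit with spike-in group as a block. For KO minus WT under PBS, 5 Gja1 probe sets lie at -0.47 to -0.26 with intervals below 0, and all other intervals include 0.

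Genes that anchor or regulate these channels were measured for 11 of 12 listed, and 0 passed in any comparison. Camk2d, a calmodulin-dependent kinase that phosphorylates sodium and calcium channels, had the smallest p of the list for KO against WT on average. It read 9.13 and 9.27 in WT PBS, 9.05, 8.97 and 9.32 in WT AngII, 8.76, 8.84 and 8.78 in KO PBS, and 8.32 and 8.61 in KO AngII. All 5 KO arrays lay below all 5 WT arrays, at -0.53 ± 0.11 (limma adjusted p = 0.219), and at -0.52 with the spike-in block. Ank2, ankyrin B, was at -0.43 ± 0.12 (limma adjusted p = 0.275) and at -0.18 with the block. Fgf13, which binds sodium channels from inside the cell, was at -0.29 ± 0.08 for AngII on average (limma adjusted p = 0.483), and its value was -0.29 with the block too.

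Transcription factors of the conduction system were measured for 17 of 19 listed, and 0 passed in any comparison. For AngII averaged over genotypes 10 of 17 were below 0 (median -0.06, all probe sets 0.02). Of the 10, 4 reached an unadjusted limma p under 0.05, as did 9.62% of all probe sets in either direction. Irx3, a factor of the Purkinje network, was at -0.54 ± 0.15 and Tbx3, a repressor of the working muscle programme in nodal tissue, at -0.57 ± 0.18, each with a limma adjusted p of 0.483. With the spike-in block they were at -0.51 and -0.28. Both are also among the conduction tissue markers, of which 3 were above 0 and 3 below for AngII averaged over genotypes (median 0.01). In KO against WT on average 8 of 17 were above 0 and 9 below (median -0.06, all probe sets 0.03). At an unadjusted limma p under 0.05, 2 were higher and 1 lower, against 12.4% of all probe sets in either direction. Smallest in p were Isl1 at 0.39 ± 0.10 and Tbx5 at 0.35 ± 0.11 (limma adjusted p = 0.27 and 0.318). Isl1 is also a conduction tissue marker (5 of 6 above 0, median 0.08) and Tbx5 an atrial marker (2 of 8 above 0, median -0.18).

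The probe sets most alike to each gene over the 10 arrays were found by Pearson's r among 19866 probe sets of other genes with 1 symbol and a mean at or above the median level. For Gja1 they were Ube2d2a (0.949), Sypl (0.932) and Ddx5 (0.927), and for Gja5 Stk39 (0.947), Zfand3 (0.937) and Spata2l (0.929). For Scn4b they were Myl6b (0.915), Ccdc77 (0.905) and Kcnj5 (0.905), and for Hcn2 Pla2g12b (0.961), Dcbld1 (0.945) and Atoh7 (0.938). For Cacna1g they were Kmt2e (0.978), Mcmbp (0.967) and Hnrnpa1 (0.966), and for Cacna1h Gas8 (0.953), Akap6 (0.948) and Mapk8ip2 (0.935). These are the highest of many values over 10 arrays that share labelling and normalization, so they describe the arrays and carry no test.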

How the data were processed

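Values were deposited as log2 expression per probe set, which the authors made with RMA (background correction, equal distributions over arrays, 1 summary per probe set), per the submitters' processing notes. The sources used here do not give its version or a genome build. Of 45101 probe sets 64 controls were left out. Platform symbols were checked by Entrez identifier, which gave a current symbol, the same or a changed one, for 34741 of 34945 single-symbol probe sets. The rest kept the platform symbol. The brightest probe set by mean over all arrays stood for a gene.

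The fit used limma 3.58.1 under R 4.3.3 (4 group means, all 10 arrays, eBayes with trend, two-sided, 6 residual degrees of freedom, Benjamini-Hochberg within each of 7 comparisons), after tests on simulated data. Array medians lay between 6.12 and 6.23, and the number of arrays limits the precision. Named companion genes are the 2 with the smallest unadjusted p per list and comparison; markers, and genes alike by r, were named by list or rank. The members and lists were chosen with earlier results of these data known. Alternatives covered normalization, the filter on dim probe sets, variance model, array weights, spike-in and replicate blocks, fewer groups, each array left out and, chosen after seeing the data, a beta-actin covariate.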

Additional observations from a re-analysis of the deposited data

How the results depend on the processing

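Of 1539 alternative values of the 84 differences of member probe sets, 1538 stayed on the same side of the threshold, and 1 passed: Gja1 1438945_x_at for KO against WT on average with array weights, where 1 member was called in place of 0. Signs of uncalled differences changed in 101 of the 1539, 22 of them under the spike-in block. The count at an unadjusted limma p under 0.05 for KO against WT under PBS was 5. It was 3 after repeated quantile normalization, 3 with the replicate block, and 1 to 5 with single arrays left out. Of all probe sets 5.82% reached that level after repeated quantile normalization, 3.6% with the replicate block and 3.41% without WT PBS 5, which gave the 1. For KO against WT on average the count was 3. It was 5 with equal array medians (12.1% of all probe sets in either direction), 7 with array weights (24.1%) and 5 with the spike-in block (3.13%). With single arrays left out it was 0 to 5. The 0 arose without WT PBS 5 (6.6%) or KO AngII 3 (7.29%), and the 5 without KO PBS 4 (8.89%). In the other 5 comparisons, where the count was 0, it lay between 0 and 4 over the alternatives. The 4 was for the genotype difference in the AngII effect without KO PBS 4, where 3.01% of all probe sets reached that level. With array weights the count was 3 for that difference (7.11% of all probe sets) and 2 for KO against WT under AngII (25.5%). Over 10 pairs of arrays with the same title number the correlation of deviations from group means ran from -0.36 to 0.10, with 0 over 0.1. With groups of 2 or 3 arrays these deviations depend on each other, so they cannot decide whether title numbers pair the arrays. The replicate block describes shared numbers only. The causes of these moves were not tested. Fits with only the compared groups could not be made for the averages or the genotype difference, which need all arrays, and the filter on dim probe sets kept 9 of 12 members. With 2 or 3 arrays a group, 95% intervals of single differences were wide, for example -0.87 to 0.25 for Scn4b under AngII in KO.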
